A study of Homo sapiens with 8 samples.

Results

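Of 48505 distinct cassette exons in the whole-cell splicing table, 3526 in 2515 genes were included in some but not all transcripts of control cells, and these exons were followed through the depletion of CHERP and into the cytoplasm. The exons were chosen by their measured inclusion level with EGFP siRNA, which had to average from 0.10 to 0.90 over the 2 whole-cell libraries. Exons were 51 to 300 nt long, exons whose introns were both 500 nt or less or both 10000 nt or more were left out, 1 event was kept for each exon, and a mean of 20 or more reads per library was required. The same limits gave 3363 exons included at under 0.10, called rarely included here, and 24682 included at over 0.90, called near-constitutive. Reads of the inclusion and skipping forms were divided by their effective lengths. The inclusion level is the part due to the form with the exon, from 0 (no inclusion reads) to 1 (no skipping reads). Inclusion reads are counted on the exon itself as well as on its junctions. Reads from RNA that keeps a flanking intron, or from overlapping exons, can therefore add to the level and were not separated here.

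The study asked how CHERP, a nuclear protein found with U2 snRNPs, shapes alternative splicing. U2OS cells, a human osteosarcoma line, received 20 nM of EGFP siRNA as the control or of CHERP#2 siRNA for 48 h. RNA came from whole cells or from the supernatant of an NP-40 lysis, termed the cytoplasm, with 2 biological replicates in each of the 4 groups, and libraries were made with a stranded mRNA kit. In the sequenced libraries a single siRNA was used against CHERP, and a rescued or second-siRNA library was not analysed here. The study used another CHERP siRNA for a Western blot and for the localization of poly(A)+ RNA.

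A cassette exon is kept or skipped as a unit, because the splice sites at its ends are recognized together across the exon. U2 snRNP binds the branch point ahead of the 3′ splice site and U1 snRNP the 5′ splice site, and exons with sites far from the consensus are often left out of part of the transcripts. An exon whose length is not a multiple of 3 shifts the reading frame, and an exon with a stop codon can send the transcript to nonsense-mediated decay (NMD), which takes place in the cytoplasm.

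Sequences of 11 fully coding exons are shown because the results below turn on them: 5 exons that were included more after CHERP siRNA, 5 that were included less and 1 of those with the smallest range over all libraries. Each line gives the last 20 bases of the upstream intron in lower case, the exon in capitals and the first 6 bases of the downstream intron in lower case, 5′ to 3′ on the transcribed strand, read from GRCh37 (hg19). The exon of STRADA, a pseudokinase that activates the kinase LKB1, lies at chr17:61803998-61804055 on the minus strand. That of FAM173B, a mitochondrial methyltransferase, lies at chr5:10235323-10235373 (minus), that of ARHGAP12, a GTPase-activating protein, at chr10:32128565-32128639 (minus) and that of MFF, the mitochondrial fission factor, at chr2:228211942-228212100 (plus). That of ZNF207, a kinetochore and spindle protein, lies at chr17:30693684-30693776 (plus). Among the exons included less, that of PPP1R12A, the targeting subunit of myosin phosphatase, lies at chr12:80199946-80200077 (minus), that of ECT2, a guanine nucleotide exchange factor of cytokinesis, at chr3:172473273-172473365 (plus) and that of KTN1, a kinesin-binding membrane protein, at chr14:56139890-56139973 (plus). That of MRPS18C, a mitochondrial ribosomal protein, lies at chr4:84379499-84379582 (plus) and that of PCBP2, a poly(C)-binding protein, at chr12:53858544-53858636 (plus). The last of these, of TPD52L2, lies at chr20:62507169-62507228 (plus).
STRADA exon of 58 nt: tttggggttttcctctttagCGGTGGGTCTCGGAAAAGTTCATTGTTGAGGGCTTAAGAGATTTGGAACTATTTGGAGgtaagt
FAM173B exon of 51 nt: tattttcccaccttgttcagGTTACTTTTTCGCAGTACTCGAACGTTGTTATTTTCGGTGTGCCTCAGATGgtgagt
ARHGAP12 exon of 75 nt: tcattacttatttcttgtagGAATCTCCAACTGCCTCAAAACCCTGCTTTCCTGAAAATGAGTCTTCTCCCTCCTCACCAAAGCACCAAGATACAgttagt
MFF exon of 159 nt: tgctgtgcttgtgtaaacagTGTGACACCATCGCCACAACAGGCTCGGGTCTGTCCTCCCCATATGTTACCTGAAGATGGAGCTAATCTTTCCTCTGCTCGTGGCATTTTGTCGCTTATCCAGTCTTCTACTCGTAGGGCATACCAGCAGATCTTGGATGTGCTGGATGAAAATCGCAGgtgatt
ZNF207 exon of 93 nt: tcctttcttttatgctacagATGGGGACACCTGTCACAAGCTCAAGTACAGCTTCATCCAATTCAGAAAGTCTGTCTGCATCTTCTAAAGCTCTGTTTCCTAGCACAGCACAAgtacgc
PPP1R12A exon of 132 nt: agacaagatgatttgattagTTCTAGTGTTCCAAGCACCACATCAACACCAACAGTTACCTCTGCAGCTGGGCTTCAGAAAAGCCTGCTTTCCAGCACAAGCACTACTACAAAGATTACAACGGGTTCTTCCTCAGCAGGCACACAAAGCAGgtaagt
ECT2 exon of 93 nt: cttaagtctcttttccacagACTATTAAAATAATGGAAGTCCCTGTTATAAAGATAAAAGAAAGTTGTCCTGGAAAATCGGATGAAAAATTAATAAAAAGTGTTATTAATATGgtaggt
KTN1 exon of 84 nt: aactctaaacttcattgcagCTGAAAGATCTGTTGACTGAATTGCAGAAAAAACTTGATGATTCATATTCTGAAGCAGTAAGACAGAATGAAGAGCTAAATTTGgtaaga
MRPS18C exon of 84 nt: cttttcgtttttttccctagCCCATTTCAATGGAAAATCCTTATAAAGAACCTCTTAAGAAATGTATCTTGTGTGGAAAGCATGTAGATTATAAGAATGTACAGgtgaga
PCBP2 exon of 93 nt: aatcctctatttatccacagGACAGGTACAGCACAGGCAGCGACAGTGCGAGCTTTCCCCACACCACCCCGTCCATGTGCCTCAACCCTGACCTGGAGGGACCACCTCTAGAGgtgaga
TPD52L2 exon of 60 nt: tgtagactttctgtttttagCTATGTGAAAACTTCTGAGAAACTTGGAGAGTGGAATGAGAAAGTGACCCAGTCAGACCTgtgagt
Splice sites were scored as the summed log2 odds of their bases, from the base frequencies at each position over all 48505 exons, against 0.25 for each base. The 3′ site was read over 20 intron and 3 exon bases and the 5′ site over 3 exon and 6 intron bases, and a higher score is nearer to the usual site. The shown exons differed widely. The 3′ site of the PPP1R12A exon, which has few pyrimidines, scored -2.47 and its 5′ site 12.8, whereas the ARHGAP12 exon scored 12.7 and 3.28 and the STRADA exon 8.98 and 11.9.

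Over all 3526 exons the median score was 8.98 for the 3′ site and 7.71 for the 5′ site (the plot of splice site scores). Near-constitutive exons had medians of 9.59 and 8.15, and rarely included exons 8.96 and 7.08. The intermediate exons thus lay beside the rarely included exons at the 3′ site and between the other classes at the 5′ site, while the quartiles of the 3 classes overlapped broadly. The sites on the far side of the flanking introns were close in all 3 classes, with medians of 8.53 for the intermediate and 8.54 for the near-constitutive exons at the upstream 5′ site, and 10.3 and 10.4 at the downstream 3′ site. The median length was 117 nt for both the intermediate and the near-constitutive exons. The intermediate exons had a median GC content of 47.4%, against 44.8% for near-constitutive and 48.9% for rarely included exons.

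**Figure D1:**
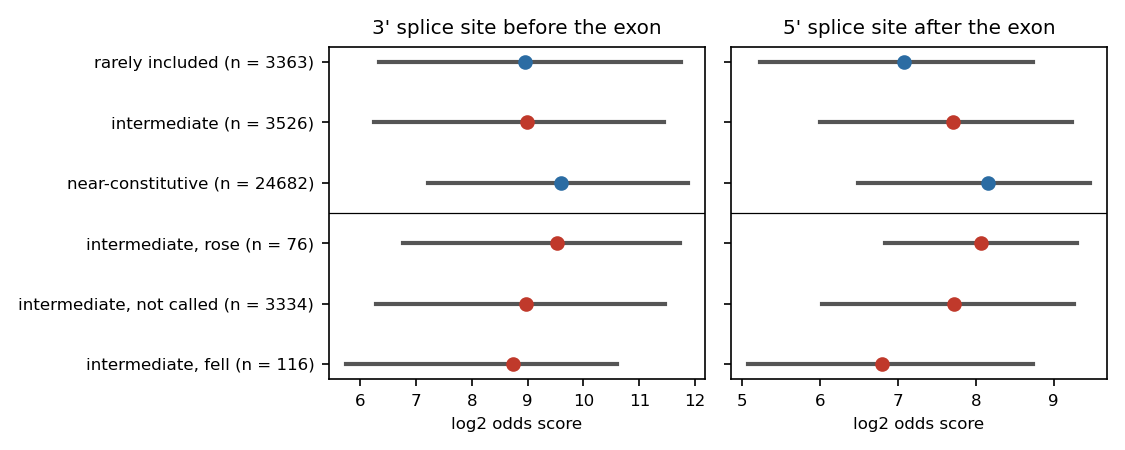
Splice site scores of the exons. Points are medians and bars run from the lower to the upper quartile of the log2 odds score, in the 3 classes of exons (above the line) and in the intermediate exons split by their change after CHERP siRNA in whole cells (below). The median 5′ score of the intermediate exons, 7.71, lies between 7.08 of rarely included and 8.15 of near-constitutive exons.

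The length was a multiple of 3 in 46.0% of the intermediate exons (95% Wilson interval 44.4 to 47.6), in 40.3% of the near-constitutive (39.6 to 40.9) and in 37.1% of the rarely included exons (35.4 to 38.7). These intervals cover counting error only, and exons that share a gene are not independent. By GENCODE annotation, 56.6% of the intermediate exons were fully coding (54.9 to 58.2), against 90.7% of near-constitutive and 16.4% of rarely included exons. A further 14.1% lay in untranslated regions, 10.0% in transcripts annotated for NMD but in no protein-coding one, 11.1% in noncoding transcripts and 7.46% were partly coding. Exons in NMD but not protein-coding transcripts may also lie in noncoding ones. A stop codon in each of the 3 reading frames was present in 21.8% of the intermediate exons (20.4 to 23.1), in 3.44% of near-constitutive and in 44.2% of rarely included exons. In the shares of fully coding exons and of exons with a stop codon in each frame the intermediate exons lay between the classes on either side. The share of partly coding exons (6.64 to 8.37) was close to that of rarely included exons, 6.72% (5.92 to 7.62), with overlapping intervals. It was higher than that of near-constitutive exons, 4.06% (3.82 to 4.31).

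**Figure D2:**
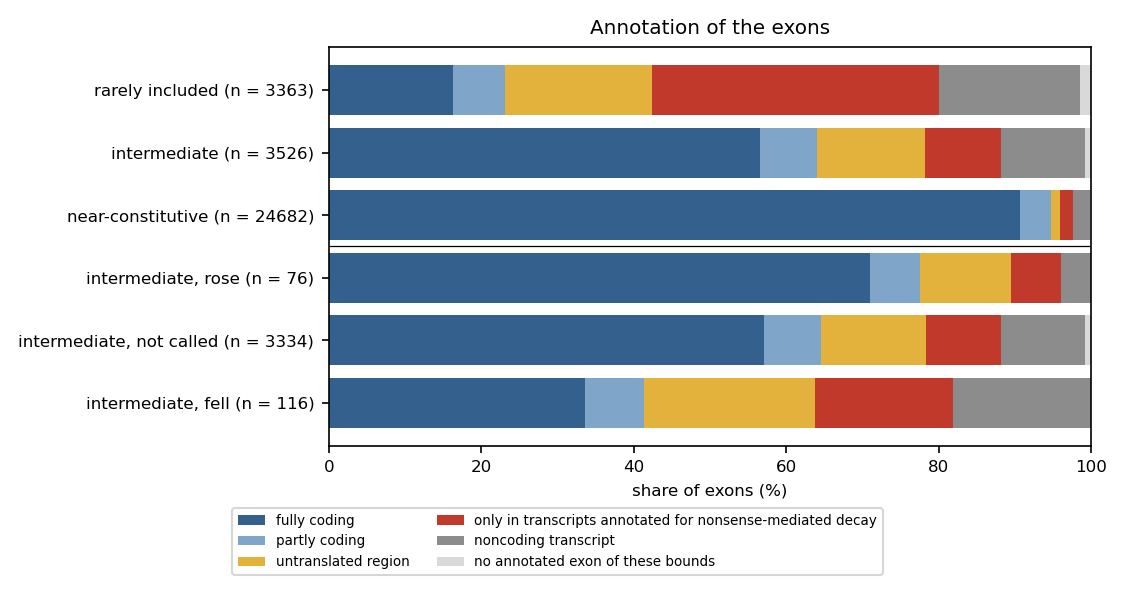
Annotation of the exons. Bars give the share of exons (%) in each kind of annotated transcript. The 3 classes are above the line, and below it the intermediate exons are split by their change after CHERP siRNA in whole cells. The NMD bars count exons in an NMD but no protein-coding transcript, which may also lie in noncoding ones. Fully coding exons made up 56.6% of the intermediate exons, 71.1% of those that rose and 33.6% of those that fell.

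The exons were not spread evenly over genes. In 721 genes there were 2 or more, 1732 exons in all, and 526 exons overlapped another one through alternative ends, which left 3246 separate places. WARS, the tryptophanyl-tRNA synthetase, held 7 exons at 3 places with EGFP levels from 0.109 to 0.847. CEP192, a centrosome scaffold, held 6 at 6 places, AHI1, a protein of the cilium base, held 5, and DPY19L2P1, a pseudogene whose reads may be shared with its parent genes, held 6. In none of these 4 genes did an exon pass the test in either fraction. At the edges of the rule, a CPSF7 exon of 66 nt with EGFP levels of 0.107 and 0.0926 lay just below the band and a BCS1L exon of 176 nt with 0.105 and 0.0963 just inside it. At the upper edge a HEATR5A exon of 180 nt with 0.8 and 1 lay inside and a MAP3K7 exon of 116 nt with 0.921 and 0.879 outside.

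The reads over all skipped exon events came to 19287081 to 23480646 per whole-cell library and 3826409 to 4685633 per cytoplasmic library, and the reads counted on the chosen exons to 408342 to 495483 and 131797 to 159239. The median exon had 59.0 reads per library in whole cells and 1508 exons had under 50, so small differences in these were not detectable. In whole cells the single CHERP event had 54 and 46 reads in the EGFP and 2 and 2 in the CHERP siRNA libraries. The table of the cytoplasm holds no CHERP event, so the depletion was not checked there. Levels of the EGFP libraries differed from each other by a median of 0.0816 and those of the CHERP libraries by 0.0497, beside 0.0898 between the siRNA means. Over the 497 exons with 200 or more reads these gaps were 0.0324, 0.0264 and 0.0644.

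With CHERP siRNA, inclusion in whole cells went both ways. Of the 3526 exons, 76 were called higher and 116 lower (quasi-binomial test, Benjamini-Hochberg adjusted p under 0.05 over all events), in 167 genes and at 176 separate places, and no gene had calls in both directions. The count depended on the test and on single libraries: 410 exons were called without a trend of the dispersion on reads and 0 with limma on log2 odds, and 103, 72 and 71 without the second EGFP, the first CHERP or the second CHERP library. The 192 calls are 5.45% of the exons, beside 0.893% of all 63977 events (0.456% higher and 0.436% lower) and 1.13% of the events with a mean of 20 or more reads. The same EGFP libraries chose the exons and entered this test, so nothing is read from the share. Over all 3526 exons the median difference, CHERP minus EGFP, was 0.0046, with quartiles of -0.0867 and 0.0927, and over all events it was 0. The levels of the 2 siRNAs did not overlap in 1900 exons (53.9%), beside 26.0% of all events with levels. Equal levels, such as 0 or 1 with both siRNAs, cannot count as free of overlap. The exons were chosen away from 0 and 1, so nothing is read from these shares either. The called exons were deeper than the rest: the median was 304 reads per library for those that rose, 195 for those that fell and 55.5 for those not called.

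**Figure D3:**
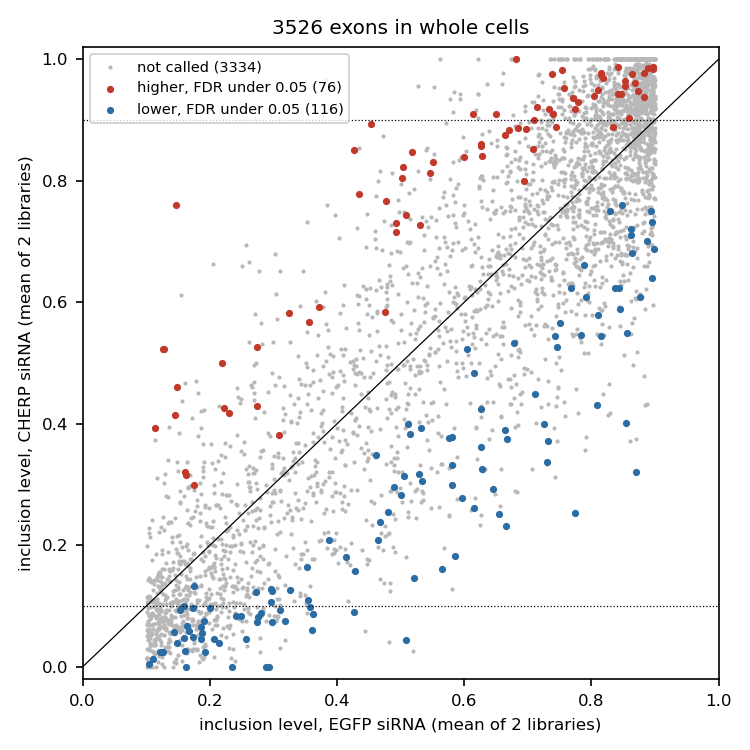
Inclusion of the 3526 exons in whole cells. Each point is an exon, with its mean level over 2 EGFP siRNA libraries on the horizontal and over 2 CHERP siRNA libraries on the vertical axis; dotted lines mark 0.10 and 0.90. The 76 exons called higher lie above and the 116 called lower below the diagonal.

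After CHERP siRNA 2425 of the exons were still at 0.10 to 0.90, 350 had a mean under 0.10 and 751 over 0.90. The band was set on the EGFP libraries alone, so these counts are a description. By starting level, 14 exons at 0.1 to 0.3 were called higher and 39 lower, among 813. At 0.3 to 0.5 these counts were 11 and 17 of 428, at 0.5 to 0.7 they were 19 and 28 of 522, and at 0.7 to 0.9 they were 32 and 32 of 1763. Over all events 0.456% were called higher and 0.436% lower. The starting level comes from the EGFP libraries that also entered the test, so nothing is read from the counts by level.

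The STRADA exon had the largest rise. Its level was 0.214 and 0.0818 in the EGFP libraries and 0.794 and 0.728 in the CHERP libraries, that is 0.148 ± 0.0932 (SD, n = 2) against 0.761 ± 0.0467, a difference of 0.613 (adjusted p = 1.57e-12). The ARHGAP12 exon had 0.128 and 0.125 with EGFP and 0.518 and 0.527 with CHERP siRNA, so its replicates were close together and far from those of the other siRNA (difference 0.396, adjusted p = 8.62e-05). The FAM173B exon went from 0.458 and 0.451 to 0.863 and 0.923 (difference 0.439, adjusted p = 0.0053).

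The MFF exon of 159 nt, one of the internal exons by which isoforms of this receptor of the fission GTPase DRP1 differ, was at 0.146 and 0.150 with EGFP and at 0.471 and 0.449 with CHERP siRNA (adjusted p = 9.02e-13). Further rises of more than 0.3 included those of CAPRIN2, an RNA-binding protein (147 nt, difference 0.423), PNISR, an arginine- and serine-rich nuclear protein (54 nt, 0.343), RPE, an epimerase of the pentose phosphate pathway (98 nt, 0.328), ACAD8, an enzyme of valine breakdown (170 nt, 0.319), IQCB1, a ciliary protein (149 nt, 0.318), and GOLGA4, a golgin of the trans-Golgi (63 nt, 0.303). The RPE exon was at 0.701 and 0.336 in the EGFP libraries, so its replicates differed by more than the siRNA means did. In the same way the GOLGA4 levels were spread, at 0.417 and 0.586 with EGFP and 0.747 and 0.863 with CHERP siRNA, and neither exon was called when the larger of its own and the shared spread was used (adjusted p = 0.795 and 0.495). The same holds for ACAD8 and CBWD6 (adjusted p = 0.0517 and 0.0529). The CBWD6 exon (88 nt, 0.395) belongs to a family of near-identical copies that can share reads. An exon of 74 nt (0.296) carries the name of the antisense RNA THAP9-AS1 in the deposited data. By the annotation used here it matches an untranslated exon of a protein-coding SEC31A transcript. Whether the counting used the strand is not given in the sources used here.

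Among the exons included less, the PPP1R12A exon had the largest difference, -0.550, from 0.792 and 0.949 with EGFP to 0.434 and 0.207 with CHERP siRNA. Both siRNAs were spread between replicates, with 36 to 73 reads per library, and the adjusted p was 0.00102, or 0.0791 when the larger of its own and the shared spread was used. The TLR4 exon (120 nt, chr9:120470477-120470596), in the untranslated region of the receptor of bacterial lipopolysaccharide, was at 0.754 and 0.794 with EGFP and at 0.276 and 0.229 with CHERP siRNA (adjusted p = 0.00101). The CANT1 exon of 139 nt, in the untranslated region of a nucleotidase, was nearly lost, at 0.445 and 0.571 with EGFP and 0.0418 and 0.0484 with CHERP siRNA (adjusted p = 0.000322).

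The exon of LETMD1, a mitochondrial membrane protein, fell by 0.453. That of MFSD9, a putative transporter, is in an NMD but no protein-coding transcript and fell by 0.433. SENP6, a SUMO protease, held an exon of 108 nt in an NMD but no protein-coding transcript. It was at 0.503 and 0.629 with EGFP and at 0.145 and 0.176 with CHERP siRNA (adjusted p = 1.06e-05). CD97, an adhesion receptor, fell by 0.403, G3BP2, a stress granule protein, by 0.402, PEA15, a death effector domain protein, by 0.393, SLFN12 by 0.377, the variable exon of 129 nt of the hyaluronan receptor CD44 by 0.376 and the 155-nt exon of the nuclear pore protein NUP62 by 0.359. For G3BP2 the adjusted p was 0.0178, and 0.0625 with the larger spread.

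**Figure D4:**
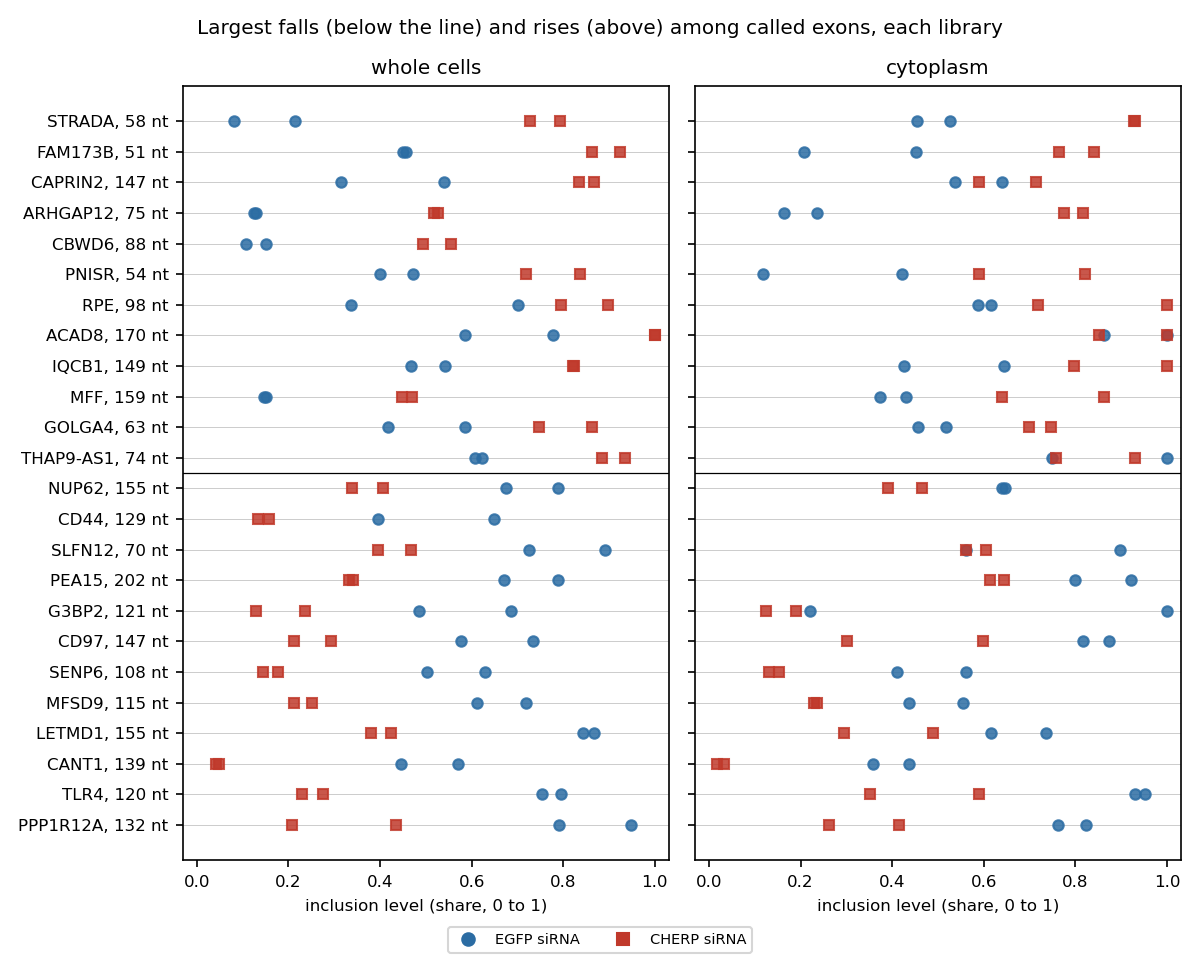
Inclusion level of the 12 largest rises and the 12 largest falls among the named exons called in whole cells, on a scale from 0 to 1. Each point is 1 library (circles EGFP siRNA, squares CHERP siRNA), in whole cells on the left and in the cytoplasm on the right; CBWD6 and CD44 have no event at the same coordinates in the cytoplasm. The exons run from STRADA at the top to PPP1R12A at the bottom. In whole cells no square overlaps a circle of the same exon, because the exons were chosen for this.

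The called exons are described here by kind of exon. Of the 76 that rose, 71.1% were fully coding (95% Wilson interval 60.0 to 80.0), beside 33.6% of the 116 that fell (25.7 to 42.6) and 57.0% of those not called (55.4 to 58.7). Exons in NMD but not protein-coding transcripts made up 18.1% of those that fell (12.2 to 26.1) and 6.58% of those that rose (2.84 to 14.5). A stop codon in each frame was present in 37.9% of those that fell and 13.2% of those that rose. Exons in any NMD transcript, whether or not also in a protein-coding one, made up 40.5% of those that fell (32.0 to 49.6). They made up 47.4% of those that rose (36.5 to 58.4) and 39.1% of those not called. The median 5′ site score was 6.80 for those that fell, 8.07 for those that rose and 7.72 for those not called. The 3′ site medians were 8.73, 9.53 and 8.98. The flanking introns of the exons that fell were the shorter ones, with medians of 1447 nt upstream and 1405 nt downstream, beside 2770 nt and 2638 nt for those that rose and 2453 nt and 2428 nt for those not called. Exon length differed too, with medians of 92.5 nt (rose), 116.5 nt (fell) and 117 nt (not called). The median EGFP level was 0.657, 0.507 and 0.710 in the same order. Kind of exon, stop codons, length and starting level were not separated. No test was made of these differences, which rest on calls from the libraries that chose the exons.

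Splicing factors held 77 exons in 57 genes, of which 8 rose and 6 fell, with a median difference of -0.0084, beside 192 calls (5.45%) and a median of 0.0046 over all 3526 exons, and 0.893% of all events. The HNRNPA2B1 exon of 136 nt is in an NMD but no protein-coding transcript of this heterogeneous nuclear ribonucleoprotein. It was at 0.633 and 0.696 with EGFP and at 0.371 and 0.409 with CHERP siRNA (adjusted p = 5.33e-11). PNISR had a second exon that rose, of 80 nt (0.279). Those named here after their values were seen are an exon of HNRNPC and 1 of the SR protein SRSF6. The exon of 272 nt in the untranslated region of HNRNPC was at 0.166 and 0.158 with EGFP and 0.322 and 0.309 with CHERP siRNA (adjusted p = 4.08e-16). The exon of 268 nt of SRSF6, in an NMD but no protein-coding transcript, was at 0.308 and 0.679 against 0.733 and 0.728. The EGFP libraries of the SRSF6 exon were far apart, and it was not called with the larger spread (adjusted p = 0.795). HNRNPH1 had exons of 92 and 139 nt that rose by 0.236 and 0.144 and that overlap each other, so that they share reads.

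Of 64 exons in genes of actin, adhesion and motors 2 rose and 9 fell, with a median of -0.0189 over all 64, beside 76 that rose and 116 that fell among the 3526 exons. Those that fell included CD44 and KTN1. In CTNND1, the p120 catenin, an exon of 119 nt rose by 0.229. The other lists are given beside the same 5.45%. In cell cycle and division 2 of 84 rose, ZNF207 and SKA2, a kinetochore protein (177 nt, 0.107), and 1 fell, that of ECT2 (-0.238). In DNA replication and repair 2 of 63 rose, POLE2, a subunit of DNA polymerase epsilon (55 nt, 0.134), and RAD51C, a recombination protein (61 nt, 0.144), and 1 fell. In vesicle and membrane traffic 3 of 77 rose, among them SEC31A of the COPII coat (297 nt, 0.261) and GOLGA4, and 2 fell, among them AP3M1, an adaptor subunit (126 nt, -0.249). In chromatin and transcription 1 of 110 rose and 4 fell, and 2 of the latter were overlapping exons of BRD9, at -0.260 and -0.223, whose EGFP libraries were far apart (adjusted p = 0.514 and 0.795 with the larger spread). In kinases and phosphatases 2 of 75 rose, STRADA and MAP4K3 (63 nt, 0.268, adjusted p = 0.0625 with the larger spread), and 1 fell, PPP1R12A. In apoptosis and autophagy 1 of 40 rose and none fell.

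The genes in which the study examined a cassette exon by RT-PCR held 24 exons in 15 genes, of which 3 rose and 11 fell, with a median of -0.109. The study chose these genes on these samples, so the counts are not independent evidence of a direction. KTN1 had 2 such exons. The exon of 84 nt was at 0.525 and 0.534 with EGFP and 0.319 and 0.315 with CHERP siRNA (adjusted p = 1.62e-12), and the exon of 87 nt was at 0.597 and 0.551 against 0.565 and 0.602 (adjusted p = 0.911). The exon of 273 nt of fibronectin (FN1) went from 0.528 and 0.474 to 0.302 and 0.263 (adjusted p = 6.69e-11), and that of 196 nt of the glycosyltransferase OGT from 0.913 and 0.840 to 0.581 and 0.635 (adjusted p = 4.65e-08). The exon of ASUN, an Integrator subunit, rose from 0.715 and 0.714 to 0.933 and 0.910 (adjusted p = 0.000104) and that of ZNF207 from 0.197 and 0.248 to 0.399 and 0.454 (adjusted p = 2.56e-06).

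NUP50, another protein of the nuclear pore, had 3 exons that fell, of 156, 165 and 190 nt, which begin at the same base and end at different 5′ splice sites, so they share reads and are not separate observations. The longest was at 0.410 and 0.448 with EGFP and 0.174 and 0.143 with CHERP siRNA (adjusted p = 3.79e-05). In NUP62 3 of 5 exons fell, at 2 places but with the same skipping reads in every library, so they are not separate observations either, and the exon of 266 nt was not called with the larger spread (adjusted p = 0.0729). Exons of the panel that were not called included AURKB (73 nt, -0.242, adjusted p = 0.544), ARAP2 (69 nt, 0.305, adjusted p = 0.363) and ATG16L1 (57 nt, 0.273, adjusted p = 0.372), with 37 to 113 reads per library in the last.

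The cytoplasmic libraries had no part in the choice of the exons. Of the 3526 exons, 2938 had an event at the same exon and flanking coordinates there, 2886 had a level in every library and 1524 had a mean of 20 or more reads. In control cells the median level over the 1524 exons was 0.736, beside 0.725 in whole cells. The median difference was 0.0165, and 826 exons were higher and 698 lower in the cytoplasm. Single exons could lie far apart in either direction. The SKA2 exon was at 0.467 and 0.485 in whole cells and 0.145 and 0.158 in the cytoplasm, and the AURKB exon at 0.618 and 0.558 against 0.974 and 1. The read length differed between the tables (a skipped form of 144 against 73 effective bases), so levels were set side by side without a test. Of the 1524 exons, 1071 were also at 0.10 to 0.90 in the cytoplasm of control cells, 107 were below and 346 above. With CHERP siRNA these counts were 997, 173 and 354 in the cytoplasm and 1100, 133 and 291 in whole cells.

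By kind of exon, the levels stood as follows. The 135 exons in NMD but not protein-coding transcripts had median levels of 0.278 and 0.330 in the whole-cell and 0.194 and 0.199 in the cytoplasmic EGFP libraries. Of these, 87 were lower in the cytoplasm. With CHERP siRNA the medians of these exons were 0.212 and 0.205 in whole cells and 0.164 and 0.161 in the cytoplasm. The 973 fully coding exons were at 0.788 and 0.770 in whole cells and 0.786 and 0.789 in the cytoplasm with EGFP siRNA, and 558 of them were higher in the cytoplasm. Exons with a length that is a multiple of 3 (780, median difference 0.0136) and other exons (744, 0.0180) were close to each other. Over exons of all kinds, the median difference with EGFP siRNA was -0.0323 for whole-cell levels of 0.1 to 0.3 and 0.0302 for those of 0.7 to 0.9. The exons in NMD but not protein-coding transcripts began at a whole-cell median of 0.303 and the fully coding ones at 0.789. Kind of exon and starting level were not separated.

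In the cytoplasm 22 of the 2938 exons were called after CHERP siRNA, 6 higher and 16 lower, with 111 without the trend, 0 with limma and 7, 8 and 13 without the first EGFP, the second EGFP or the first CHERP library. The 22 calls are 0.749%, beside 0.257% of all 31924 events (0.147% higher and 0.11% lower) and 0.411% of the events with a mean of 20 or more reads. The median difference over 2886 exons was -0.0148, with 1276 higher and 1598 lower, and over all events it was -0.000296. In 1219 exons (42.2%) the levels of the siRNAs did not overlap, beside 23.8% of all events with levels. Equal levels, such as 0 or 1 with both siRNAs, cannot count here. The exons were chosen for whole-cell levels away from 0 and 1, so nothing is read from these shares. Of the 22 called exons, 17 were also called in whole cells, all of them in the same direction.

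The PCBP2 exon was the deepest of the 22, with 927 to 1531 reads per library in the cytoplasm. It was at 0.707 and 0.722 with EGFP and 0.561 and 0.587 with CHERP siRNA in the cytoplasm (adjusted p = 1.88e-07), and at 0.608 and 0.624 against 0.481 and 0.487 in whole cells. The CANT1 exon of 139 nt was at 0.359 and 0.437 against 0.0325 and 0.0169 in the cytoplasm (adjusted p = 1.95e-06), so it was nearly lost in both fractions. The HNRNPA2B1 exon was at 0.506 and 0.543 against 0.164 and 0.213 (adjusted p = 0.00351). The NUP50 exon of 190 nt was at 0.374 and 0.256 against 0.0661 and 0.0847 (adjusted p = 0.000553).

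Other exons that fell in both fractions included those of PTPMT1, a mitochondrial phosphatase (192 nt, -0.213 in whole cells and -0.313 in the cytoplasm), C5orf22 (198 nt, -0.217 and -0.343), MRPS18C (-0.142 and -0.267) and SNRPN, a protein of the snRNP core (124 nt, -0.103 and -0.129). Those that rose in both included the exons of MFF, at 0.374 and 0.430 with EGFP and 0.862 and 0.639 with CHERP siRNA in the cytoplasm (adjusted p = 0.0441), ZNF207 (0.237), ZRANB2, a zinc finger protein of the spliceosome (75 nt, 0.254), and HMGCS1. The HMGCS1 exon of 59 nt, in the untranslated region of a cholesterol synthesis enzyme, was at 0.548 and 0.530 against 0.748 and 0.760 in the cytoplasm (adjusted p = 0.00351) and at 0.316 and 0.303 against 0.397 and 0.365 in whole cells. With the larger of the own and the shared spread 19 of the 22 calls remained.

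The 5 exons called only in the cytoplasm were all lower there. They included a second CANT1 exon (171 nt, -0.246, with -0.345 and an adjusted p of 0.0541 in whole cells), which has the same skipping reads in every library as the exon of 139 nt called in both fractions, EPS15L1, an endocytic adaptor (133 nt, -0.655), SREBF1, the sterol regulatory transcription factor (90 nt, -0.406), and OCIAD2 (97 nt, -0.103). The OCIAD2 exon had 817 to 1404 reads and stood at 0.888 and 0.871 against 0.781 and 0.771 (adjusted p = 0.00144). In whole cells these 5 were also lower, by 0.0420 for OCIAD2 to 0.345 for CANT1. The EPS15L1 and SREBF1 exons rest on 13 to 23 and 18 to 23 reads per library.

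Of the 192 exons called in whole cells 183 had cytoplasmic levels, and 172 of them (94.0%) had a difference of the same sign there. The same sign was found in 1950 of all 2886 exons (67.6%) and in 1082 of the 1524 with 20 or more reads (71.0%). The exons called higher in whole cells had a median difference of 0.204 there and 0.122 in the cytoplasm, and those called lower -0.200 and -0.123. These exons were selected by the whole-cell test, which favours large differences in whole cells. The medians therefore do not show a smaller effect in the cytoplasm. The STRADA exon, with 5 to 25 reads in the cytoplasm, was at 0.527 and 0.455 with EGFP and 0.928 and 0.930 with CHERP siRNA and was not called there (difference 0.438, adjusted p = 0.761), which does not show that it stayed the same. Across the 1524 exons the differences in the 2 fractions had a correlation of 0.595 (Pearson), and across the 1371 of them not called in whole cells 0.515. This describes exons of 8 libraries and not replicates, and exons of 1 gene share reads.

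**Figure D5:**
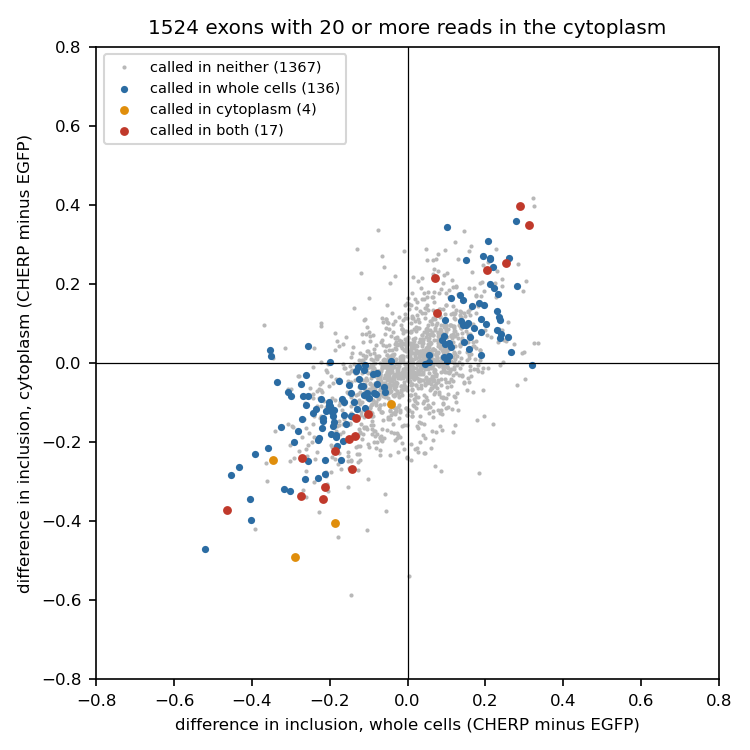
Difference in inclusion, CHERP minus EGFP siRNA, in whole cells (horizontal) and in the cytoplasm (vertical). Each point is 1 of the 1524 exons with a mean of 20 or more reads per library in the cytoplasm. Most exons called in whole cells lie at the lower left or upper right, and over all 183 called exons with levels 172 had the same sign in both fractions.

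The difference between the fractions was itself tested as an interaction of siRNA and fraction. None of the 2938 exons was called at an adjusted p under 0.05 (the smallest was 0.939), beside 0.0% of all 25624 events in both tables. At an unadjusted p under 0.05 there were 116 of the exons and 738 of all events. The count stayed at 0 with a robust moderation, with the larger spread and with events of 20 or more reads in both tables. The median exon had 21.0 reads per library in the cytoplasm and each group 2 libraries. The absence of calls therefore does not show equal effects in both fractions. For the HMGCS1 exon, named after its values were seen, the unadjusted p was 0.00169.

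The exons with the smallest range over all 8 libraries are given as a contrast. Among the 89 exons with 200 or more reads in both tables, the range over all 8 libraries was 0.0479 for C17orf76-AS1 (57 nt), 0.0536 for TPD52L2 (60 nt), 0.0538 for FIS1, a mitochondrial fission receptor (133 nt), 0.0657 for ERCC1, a subunit of a repair endonuclease (72 nt), 0.0750 for MDH1, the cytosolic malate dehydrogenase (176 nt), and 0.0774 for HM13, a signal peptide peptidase (86 nt). The TPD52L2 exon was at 0.705 and 0.737 with EGFP and 0.741 and 0.712 with CHERP siRNA in whole cells, and at 0.687, 0.693, 0.714 and 0.696 in the cytoplasm. The range does not mean that the siRNAs overlapped. The HM13 exon was at 0.887 and 0.885 with EGFP and 0.948 and 0.948 with CHERP siRNA in whole cells (difference 0.0618, adjusted p = 0.125), a larger difference than that of some called exons, such as MYL6 (108 nt, 0.0438). The MDH1 levels did not overlap between siRNAs in either fraction, with differences of 0.0266 and 0.0265. These 6 were chosen for their small range, so their levels are a description.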

How the data were processed

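The deposited tables were made by the authors, who mapped the reads to hg19 with STAR 2.5.2b and ran rMATS (version not given in the sources used here). The 2 tables of skipped exon events hold, as deposited by the authors, the reads of the inclusion and of the skipping form for each library, without normalization, and the effective length of each form in bases (other quantities, neither a count per gene nor a normalized value). The version that counts reads on the exon as well as on junctions was used. The authors' p-values, FDR, level differences and the 4 columns of levels per library in these tables were not used, nor were the tables of the other event types and of expression. Libraries in a cell carry no number and are called first and second.

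Inclusion levels were computed from reads over effective lengths. Differences were tested across all events of a table with a quasi-binomial model whose dispersion was moderated with limma 3.58.1 (squeezeVar, trend on reads, floor of 1) in R 4.3.3, and adjusted by Benjamini-Hochberg. The moderation gave the shared trend full weight, so that an event's own spread between 2 libraries did not enter, and 1 alternative used the larger of both. The script was tested on simulated data. Sequences came from GRCh37 and annotation from GENCODE 44 lifted to it, whereas the authors used GENCODE 19 for expression, and 3500 of 3526 exons matched an annotated exon exactly. Stop codons were searched in all 3 frames of an exon in place of the annotated frame.

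The exons and gene lists were chosen with earlier results of these data known. Named exons were the 12 largest rises and falls among calls with a difference of 0.1 or more and no overlap between libraries. Also named were the 12 largest cytoplasmic differences called in both fractions, 5 called in the cytoplasm alone, the RT-PCR genes and 3 called exons per list. Further ones were 6 of the smallest range, the exons at the edges and the genes with most exons. The 150 exons on chromosome 8 were counted and not named, and some results are not reported here.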

Additional observations from a re-analysis of the deposited data

How the results depend on the processing

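The counts of called exons depended on how the spread was estimated and on single libraries. Without a trend of the dispersion on reads 410 exons were called in whole cells, 111 in the cytoplasm and 90 in the gene lists (main counts 192, 22 and 52), and with limma on log2 odds 0, 0 and 0, where 5223 of all whole-cell and 2687 of all cytoplasmic events had an unadjusted p under 0.05. With robust moderation, the larger spread, 20 or 50 reads or 1 event per exon the counts ranged from 148 to 215 in whole cells and from 19 to 30 in the cytoplasm. The band from 0.20 to 0.80 held 1754 exons with 121 and 14 calls, 48.1% of them with a length that is a multiple of 3, and 2018 exons had a mean of 50 or more reads. With 1 library left out, whose group then borrows the spread of the other, the counts ranged from 71 to 176 in whole cells, from 7 to 18 in the cytoplasm and from 17 to 43 in the lists. Whole-cell calls fell to 103 without the second EGFP library and to 72 and 71 without the first or second CHERP library, and cytoplasmic calls to 7, 8 and 13 without the first or second EGFP or the first CHERP library. The cause was not tested. Of 54 named exons called in whole cells, 44 were also called with the larger spread and 40 lost the call without at least 1 library, and none changed direction. The median differences moved by less than the median SD of single exons between replicates (0.0452 in whole cells and 0.0548 in the cytoplasm). That SD is larger than the medians themselves, so this limit could not register a shift of their size. The median of whole cells went from 0.0046 to -0.0066 in the narrower band and to -0.0039 without the second EGFP library. No paired analysis was possible because the columns carry no replicate number. Depth limits the cytoplasm, where the median exon had 21.0 reads per library.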
